A study of Homo sapiens with 12 samples.

Results

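The CDK inhibitors are the small proteins that bind cyclin-dependent kinases (CDKs) and hold back the cell cycle, and 7 gene symbols encode them: CDKN1A, CDKN1B, CDKN1C, CDKN2A, CDKN2B, CDKN2C and CDKN2D. They were chosen by name, and all 7 were among the 23368 symbols that both count tables list. The cells were SUDHL6, an established human cell line of diffuse large B-cell lymphoma with germinal centre features. The 4 groups were cells given 200 nM GSK591, which blocks the arginine methyltransferase PRMT5, for 24 h, cells given its vehicle (0.01% DMSO) for 24 h, cells given 200 nM GSK591 for 96 h, and cells given vehicle for 96 h. Each group held 3 poly(A)-selected RNA-seq libraries. All of them came from 1 cell line. Whether replicates were grown as separate cultures is not stated in the labels, and p-values here measure the spread between these libraries, which may be technical.

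CDK inhibitors form 2 families. The CIP/KIP proteins p21 (CDKN1A), p27 (CDKN1B) and p57 (CDKN1C) bind cyclin-CDK complexes broadly, above all those of CDK2, while the INK4 proteins p16 (CDKN2A), p15 (CDKN2B), p18 (CDKN2C) and p19 (CDKN2D) bind CDK4 and CDK6 and keep cyclin D from them. In germinal centre B cells the repressor BCL6 is known to hold CDKN1A and CDKN1B down. CDKN1A is also a classic gene of the DNA damage response, and CDKN2A uses separate first exons to encode p16 and the unrelated protein ARF.

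In vehicle cells p21 and p27 transcripts moved in opposite directions between 24 h and 96 h, and with GSK591 the p21 transcript fell at 96 h while that of p27 passed the test at neither time. CDKN1A was lower in vehicle cells at 96 h by 1.78 on the log2 scale, and lower again with GSK591 at that time. CDKN1B stood 2.03-fold higher at 96 h than at 24 h in vehicle cells. CDKN2A and CDKN2C fell with GSK591 at 96 h, the CDKN2A call being lost in 3 of 15 alternative settings. CDKN2D was slightly lower with GSK591 at both times but called at 24 h only, a call lost in 7 of 13 alternative settings. CDKN2B was low throughout and CDKN1C was not detected above 1 count in any library. In the main fits no CDK inhibitor gene was called higher with GSK591 at either time. With both 96 h libraries numbered 2 left out, CDKN1B and CDKN2B were called higher at 96 h. CDKN1B was also called higher without GSK591 replicate 2 alone.

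Of the 12 libraries, 11 held between 48.5 and 64.4 M counts (M, mega), and vehicle replicate 1 at 96 h held 547.9 M, which is 10.2 times the median of the others. The libraries numbered 2 stood apart from the others of their group at 96 h: their chi-square per degree of freedom against those was between 17.5 and 41.9, while every other pair of replicates lay between 2.26 and 9.56. Results at 96 h are therefore also given without both of them where a call changed. All 8 B-cell and germinal centre markers were present in every library, at a sum of 7594 to 8983 CPM (counts per M counts, scaled by TMM). Summed markers reached at most 0.31 CPM for T cells, 1.38 CPM for myeloid cells, 1.27 CPM for fibroblasts and 0.109 CPM for epithelium, with the upper values of all 4 in GSK591 libraries at 96 h, and CD3D and KRT19 were at 0 in all 12 libraries. Each sum lay below the level of every CDK inhibitor gene tested other than CDKN2B, and their part in the results was not tested. In bulk RNA, fewer cells that carry a transcript and less of it per cell cannot be told apart.

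The sequences before the start sites of CDKN1A and CDKN1B are shown because these genes had the widest changes of the 7 and are the pair that BCL6 is known to repress. Each is the 250 bases before the start in RefSeq on GRCh38.p14, at chr6:36678464-36678713 (plus strand) and chr12:12717118-12717367 (plus strand), a build other than the one the counts were made on. The capitals mark the GC box GGGCGG on either strand, a motif bound by SP1.

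CDKN1A: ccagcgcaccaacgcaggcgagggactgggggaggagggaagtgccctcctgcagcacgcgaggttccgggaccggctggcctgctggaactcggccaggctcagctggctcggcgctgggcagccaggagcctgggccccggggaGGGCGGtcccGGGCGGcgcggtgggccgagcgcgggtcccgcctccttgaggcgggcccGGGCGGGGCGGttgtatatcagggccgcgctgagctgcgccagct

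CDKN1B: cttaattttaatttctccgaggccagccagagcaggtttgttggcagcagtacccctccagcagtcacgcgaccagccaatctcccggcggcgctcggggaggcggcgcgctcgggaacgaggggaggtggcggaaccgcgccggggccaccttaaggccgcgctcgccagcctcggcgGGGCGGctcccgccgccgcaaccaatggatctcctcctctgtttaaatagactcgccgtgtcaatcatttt

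The CDKN1A window held 4 GC boxes, the last pair overlapping by 1 base, no CCAAT box and 76.4% G and C. The CDKN1B window held 1 GC box, 2 CCAAT boxes and 64.4% G and C. Among 35116 windows of the same kind, 42.6% held GGGCGG on either strand, 7.63% held it at least 4 times and 32% held CCAAT. RefSeq windows were found for 6 of the 7 genes, 9 windows in all, and CDKN1C had no entry in that table. None of the 9 held TTCCTAGAA, a core of the BCL6 motif searched on both strands, which 0.313% of all windows hold, and none held TATAAA, which 10.7% hold. Both CDKN2A windows held 66.8% G and C, and 1 of them held 1 GC box. The CDKN2B and CDKN2D windows held 2 GC boxes each, and the 3 CDKN2C windows held 0, 5 and 1. The E-box CACGTG stood in 2 of the CDKN2C windows, against 6.34% of all windows. A match is a description of letters and says nothing about binding.

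**Figure D1:**
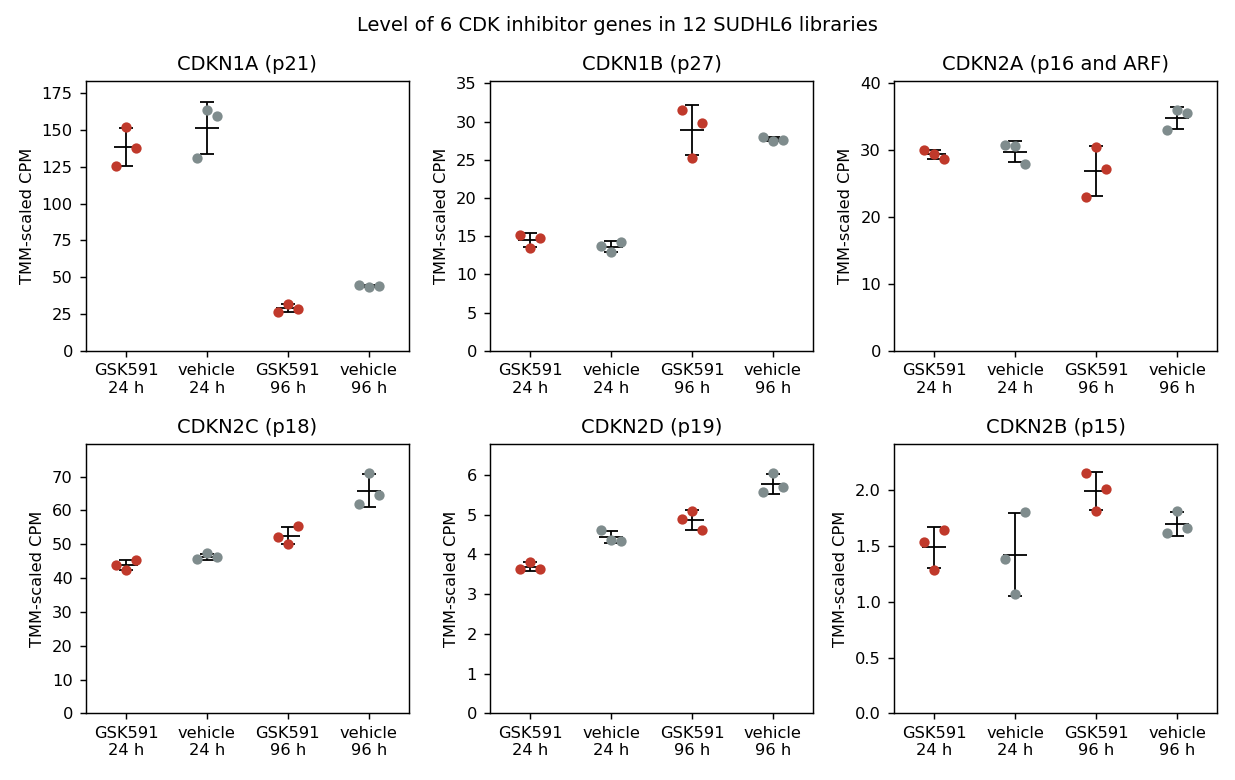
Level of the 6 CDK inhibitor genes with counts in every library, in CPM on linear axes that start at 0 and differ between panels. Points are the 12 libraries and bars are mean ± SD of 3; CDKN1A is lower and CDKN1B higher at 96 h than at 24 h in both treatments.

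CDKN1C, the gene of p57, was the one gene of the 7 that these cells were not seen to express. It had 2 counts over the 12 libraries, 1 each in vehicle replicates 1 and 2 at 96 h, and 0 in the other 10, including all 6 GSK591 libraries. The level that 3 counts would give was between 0.0466 and 0.0619 CPM in 11 libraries and 0.00548 CPM in the deep one, and these limits cover counting error only. It did not pass the filter on low counts at either time and was not tested. The other 6 genes had counts in all 12 libraries and passed the filter in every comparison, so the results below concern 6 of the 7.

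CDKN1A encodes p21, the CIP/KIP inhibitor that stops CDK2 after DNA damage. It had 126, 152 and 138 CPM in GSK591 libraries at 24 h, against 131, 164 and 160 CPM in vehicle libraries at 24 h. The ranges overlapped and the difference did not pass the threshold of 0.05, with a log2 fold change of -0.13 ± 0.06 (SE, n = 3 each) and an adjusted p of 0.166 by edgeR's quasi-likelihood test with Benjamini-Hochberg adjustment over all genes. The 96 h values were 26.4, 31.9 and 28.6 CPM in GSK591 libraries, against 44.7, 43.5 and 43.8 CPM in vehicle libraries. Every GSK591 library lay below every vehicle library, and CDKN1A fell by 33.5% (log2 fold change -0.59 ± 0.08, adjusted p = 0.00122 by the same edgeR test). The 96 h call stood in all 15 alternative settings, between -0.69 and -0.53. The 24 h result depended on single libraries: without vehicle replicate 1 it was -0.22 (adjusted p = 0.00954, edgeR) and without GSK591 replicate 2 it was -0.20 (adjusted p = 0.00503, edgeR), both past the threshold. With no filter on low counts, so that more genes entered the fit, it was also past it (adjusted p = 0.00647, edgeR). Adding the replicate number to the fit as a block gave -0.13 (adjusted p = 0.000531, edgeR), past it as well. Each GSK591 library at 24 h lay below the vehicle library of its number, but whether the numbers pair libraries was not settled.

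CDKN1B encodes p27, the CIP/KIP inhibitor that accumulates in resting cells and is removed by the SKP2 ubiquitin ligase as cells enter S phase. Its level was 15.1, 13.5 and 14.8 CPM in GSK591 libraries at 24 h, against 13.7, 12.9 and 14.3 CPM in vehicle libraries at 24 h. At 96 h it was 31.5, 25.2 and 29.8 CPM in GSK591 libraries, against 28.0, 27.5 and 27.6 CPM in vehicle libraries. The treatments overlapped at both times, while every library of 96 h lay above every library of 24 h. The log2 fold change of GSK591 over vehicle was 0.08 ± 0.06 at 24 h (adjusted p = 0.359, edgeR) and 0.07 ± 0.08 at 96 h (adjusted p = 0.504, edgeR; SE, n = 3 each). The low value at 96 h was GSK591 replicate 2: without it the change was 0.15 (adjusted p = 0.0381, edgeR), without both libraries numbered 2 it was 0.14 (adjusted p = 0.0208, edgeR), and without GSK591 replicate 1 it was -0.002, not past the threshold.

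The INK4 genes were led by CDKN2C, which encodes p18, an inhibitor known from mice to be needed for the generation of plasma cells. CDKN2C had 43.9, 42.4 and 45.2 CPM in GSK591 libraries at 24 h, against 45.5, 47.3 and 46.1 CPM in vehicle libraries at 24 h. After 96 h its level was 52.3, 50.1 and 55.3 CPM in GSK591 libraries, against 61.8, 71.2 and 64.5 CPM in vehicle libraries. The treatments did not overlap at either time, GSK591 being the lower, and both 96 h groups lay above both 24 h groups. The 24 h difference of -0.08 ± 0.03 did not pass the threshold (adjusted p = 0.127, edgeR). At 96 h CDKN2C fell by 19.3% (log2 fold change -0.31 ± 0.06, adjusted p = 0.00661, edgeR), and that call stood in all 15 alternative settings, between -0.36 and -0.22.

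CDKN2A encodes p16 and ARF, which share exons in different reading frames. The deposited counts give 1 value per symbol, so the p16 and ARF transcripts cannot be told apart here. CDKN2A had 30.0, 29.5 and 28.6 CPM in GSK591 libraries at 24 h, against 30.8, 30.5 and 28.0 CPM in vehicle libraries at 24 h, overlapping ranges with a log2 fold change of -0.02 ± 0.04 (adjusted p = 0.804, edgeR). At 96 h it had 23.0, 30.5 and 27.1 CPM in GSK591 libraries, against 33.0, 36.0 and 35.5 CPM in vehicle libraries. All 3 GSK591 libraries lay below the vehicle libraries, with replicate 2 nearest to them, and CDKN2A fell by 21.9% (log2 fold change -0.36 ± 0.10, adjusted p = 0.0218, edgeR). That call rested on the full set of libraries: the adjusted p by edgeR was 0.0783 without vehicle replicate 2, 0.0581 without vehicle replicate 3 and 0.0661 without GSK591 replicate 3.

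CDKN2B encodes p15, the INK4 inhibitor known as a target of TGF-beta signalling, and it was the lowest of the 6 genes tested. It had 1.54, 1.28 and 1.64 CPM in GSK591 libraries at 24 h, against 1.39, 1.07 and 1.81 CPM in vehicle libraries at 24 h. The 96 h levels were 2.16, 1.82 and 2.01 CPM in GSK591 libraries, against 1.62, 1.82 and 1.66 CPM in vehicle libraries. The ranges overlapped at both times, and the log2 fold changes of 0.05 ± 0.17 (adjusted p = 0.883, edgeR) and 0.25 ± 0.14 (adjusted p = 0.164, edgeR) did not pass the threshold. With both libraries numbered 2 left out, the 96 h value was 0.36 (adjusted p = 0.028, edgeR). CDKN2B is a close paralogue and neighbour of CDKN2A and is overlapped by the antisense gene CDKN2B-AS1. With the strand setting not given in the sources used here, reads of these genes may be split between them, and the CDKN2B values are uncertain.

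CDKN2D, the gene of p19, had 3.63, 3.82 and 3.62 CPM in GSK591 libraries at 24 h, against 4.60, 4.37 and 4.33 CPM in vehicle libraries at 24 h. After 96 h it had 4.88, 5.09 and 4.60 CPM in GSK591 libraries, against 5.58, 6.06 and 5.69 CPM in vehicle libraries. The GSK591 libraries lay below the vehicle libraries at both times without overlap. At 24 h CDKN2D fell by 16.7% (log2 fold change -0.26 ± 0.09, adjusted p = 0.0421, edgeR), and at 96 h the value of -0.23 ± 0.10 missed the threshold (adjusted p = 0.0907, edgeR). The 24 h adjusted p was 0.138 by DESeq2 and 0.227 in a fit of all 12 libraries. By edgeR it was 0.127, 0.0881 and 0.06 without vehicle replicates 1, 2 and 3, and 0.133 and 0.116 without GSK591 replicates 1 and 3. The 96 h value passed the threshold in the fit of all 12 libraries (adjusted p = 0.0149), without GSK591 replicate 2 (adjusted p = 0.0328) and without both libraries numbered 2 (adjusted p = 0.0313), all by edgeR.

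At 24 h, then, 1 of the 6 genes tested was called, CDKN2D and lower, where 14.7% of 13173 genes were called in either direction, 7.44% higher and 7.29% lower. The groups did not overlap for 2 of the 6 (CDKN2C and CDKN2D), against 31.9% of all genes. The 1940 genes called at 24 h were split into 980 higher and 960 lower with TMM scaling, and into 563 higher and 1220 lower when libraries were scaled by their totals alone. At 96 h, 3 of the 6 were called, all lower (CDKN1A, CDKN2A and CDKN2C), where 40.2% of 13514 genes were called, 20.7% higher and 19.6% lower. The groups did not overlap for 4 of the 6 (the same 3 genes and CDKN2D), against 54.6% of all genes. The median log2 fold change of the 6 was -0.05 at 24 h, against -0.00 over all genes tested, and -0.27 at 96 h, against 0.00 over all genes tested. With both libraries numbered 2 left out, 8201 of 13566 genes tested were called at 96 h, 4099 higher and 4102 lower, in place of 5437 of 13514. So wide a call took in all 6 CDK inhibitor genes, CDKN1B and CDKN2B higher and the other 4 lower. In the authors' deposited table, CDKN2D was the one with an FDR under 0.05 at 24 h (log2 fold change -0.28, FDR 0.0184). At 96 h the authors' deposited table has CDKN1A at -0.59 (FDR 1.96e-08), CDKN2C at -0.31 (FDR 0.000933) and CDKN2A at -0.35 (FDR 0.00726), with CDKN1B, CDKN2B and CDKN2D above 0.05.

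**Figure D2:**
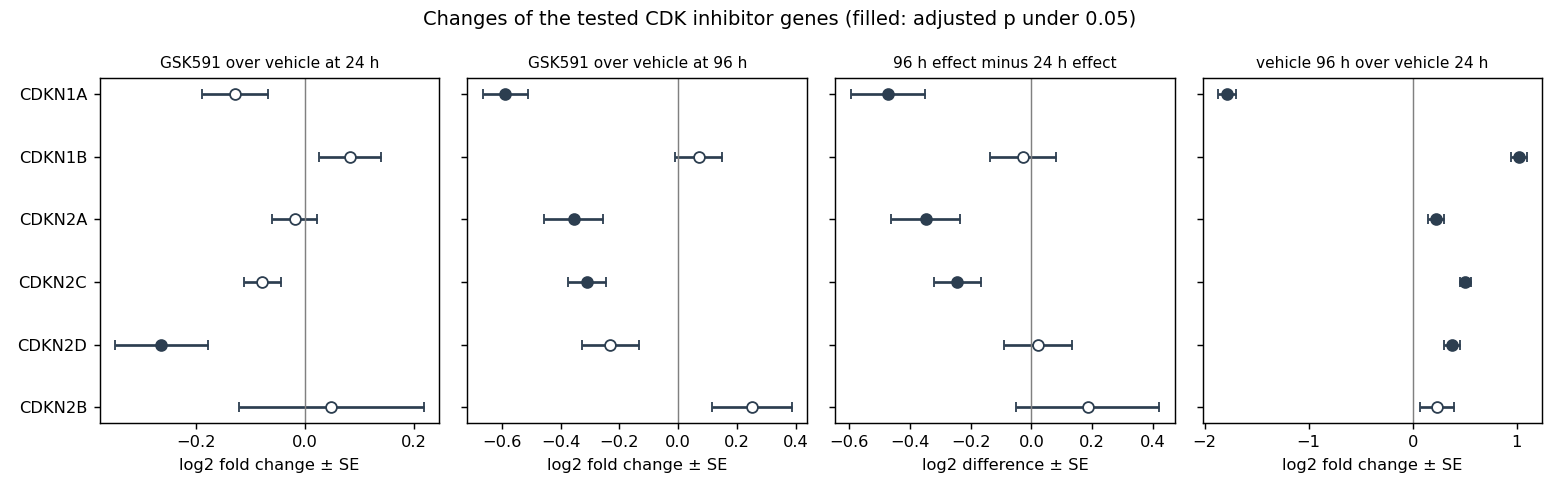
Log2 fold change of the 6 tested CDK inhibitor genes in each comparison, with bars of ± 1 SE from edgeR's fit and filled points for an adjusted p under 0.05. CDKN1A at -1.78 and CDKN1B at 1.02 in vehicle cells, 96 h over 24 h, lie far outside the range of the GSK591 effects.

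The effect of GSK591 on CDKN1A differed between the times. Tested directly in a fit of all 12 libraries, the 96 h effect minus the 24 h effect was -0.47 ± 0.12 for CDKN1A on the log2 scale (adjusted p = 0.0146, edgeR), and the call stood in all 20 alternative settings, with an adjusted p of at most 0.0432. CDKN2A at -0.35 ± 0.11 (adjusted p = 0.0398, edgeR) and CDKN2C at -0.24 ± 0.08 (adjusted p = 0.0349, edgeR) also passed the threshold. That made 3 of 6, all more negative at 96 h, where 24.1% of 13665 genes were called, 13.2% in that direction and 11% in the other. The CDKN2A call was lost on leaving out any 1 of 10 libraries, that is each of the 12 other than vehicle replicate 1 and GSK591 replicate 2 at 96 h, with adjusted p between 0.0593 and 0.101, and with scaling by library totals (adjusted p = 0.0736, edgeR). The CDKN2C call was lost without any 1 of vehicle replicates 1, 2 and 3 and GSK591 replicates 1 and 3 at 24 h, and vehicle replicate 2 and GSK591 replicate 1 at 96 h, with adjusted p between 0.0517 and 0.0839. For CDKN1B the difference was -0.03 ± 0.11 (adjusted p = 0.873), for CDKN2B 0.19 ± 0.24 (adjusted p = 0.597) and for CDKN2D 0.02 ± 0.11 (adjusted p = 0.906), none past the threshold by edgeR.

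Between 24 h and 96 h in vehicle, without any GSK591, CDKN1A and CDKN1B had larger log2 changes than any of the 6 tested genes had with the drug at either time. CDKN1A averaged 44.0 ± 0.612 CPM in vehicle cells at 96 h and 152 ± 17.6 CPM in vehicle cells at 24 h (SD, n = 3 each), a fall of 1.78 ± 0.09 on the log2 scale (-1.78, adjusted p = 3.05e-08, edgeR). No other gene but 1 had a smaller p in that comparison, and CDKN1A ranked 75 of 13665 by the size of its change. CDKN1B averaged 27.7 ± 0.236 CPM in vehicle cells at 96 h and 13.6 ± 0.686 CPM in vehicle cells at 24 h, a rise of 1.02 ± 0.08 on the log2 scale (adjusted p = 4.11e-07, edgeR). A change of at least 2-fold that passed the threshold was found for 3.61% of all genes, and both CDKN1A and CDKN1B were among these. The time, the count table it was deposited in and any culture or sequencing batch cannot be told apart in this comparison.

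Of the 4 INK4 genes, 3 rose with time in vehicle, by smaller amounts. CDKN2C averaged 65.8 ± 4.81 CPM at 96 h and 46.3 ± 0.887 CPM at 24 h in vehicle (log2 fold change 0.51 ± 0.05, adjusted p = 7.05e-06, edgeR). CDKN2D averaged 5.78 ± 0.250 CPM at 96 h and 4.43 ± 0.147 CPM at 24 h in vehicle (0.38 ± 0.08, adjusted p = 0.00123, edgeR). CDKN2A averaged 34.8 ± 1.63 CPM at 96 h and 29.8 ± 1.57 CPM at 24 h in vehicle (0.22 ± 0.08, adjusted p = 0.0328, edgeR). CDKN2B at 1.70 ± 0.105 CPM at 96 h and 1.42 ± 0.372 CPM at 24 h in vehicle did not pass the threshold (0.24 ± 0.16, adjusted p = 0.257, edgeR). The calls of CDKN1A, CDKN1B, CDKN2C and CDKN2D stood in all 20 alternative settings. The CDKN2A call was lost without any 1 of vehicle replicates 1, 2 and 3 at 24 h or vehicle replicates 2 and 3 at 96 h (adjusted p 0.0519 to 0.144, edgeR), and CDKN2B gained a call without vehicle replicate 3 at 24 h (0.45, adjusted p = 0.045, edgeR). In all, 5 of 6 were called, 4 higher and 1 lower, where 47.7% of all genes were called, 24.2% higher and 23.5% lower. The groups did not overlap for the same 5, against 61.1% of all genes. Over all genes, 3309 were called higher and 3207 lower with TMM scaling, and 4167 higher and 2503 lower with library totals alone.

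Within a library, the ratio of CDKN1A to CDKN1B counts needs no scaling between libraries. It was 8.32, 11.3 and 9.30 in GSK591 libraries at 24 h, against 9.59, 12.7 and 11.2 in vehicle libraries at 24 h. At 96 h it was 0.837, 1.26 and 0.959 in GSK591 libraries, against 1.60, 1.58 and 1.59 in vehicle libraries. The treatments overlapped at 24 h. At 96 h every GSK591 library lay below every vehicle library, and CDKN1B had more counts than CDKN1A in 2 of the 3 GSK591 libraries. The ratio averaged 1.02 ± 0.220 with GSK591 and 1.59 ± 0.00850 with vehicle at 96 h (SD, n = 3 each), and 9.63 ± 1.50 with GSK591 and 11.1 ± 1.54 with vehicle at 24 h. It shows unequal change of the 2 transcripts and is given without a test.

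**Figure D3:**
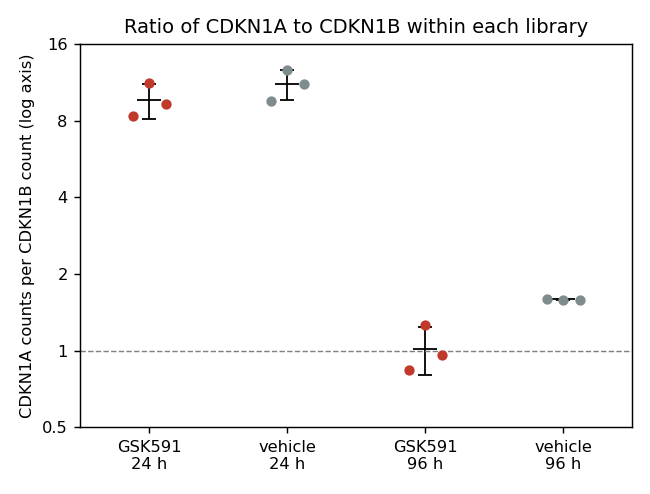
Counts of CDKN1A per count of CDKN1B in each library on a log axis, with mean ± SD of 3 per group and a dashed line at 1. The 24 h libraries lie between 8.32 and 12.7, and the 96 h libraries between 0.837 and 1.60.

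Levels of different genes can be compared only per length, and CPM was divided here by the merged exon length of each gene in GENCODE v29, which need not be the annotation used for counting. CDKN1A was the most abundant CDK inhibitor transcript at 24 h, with 55.2 ± 5.20 CPM per kb in GSK591 cells and 60.4 ± 7.02 CPM per kb in vehicle cells. CDKN2C followed with 13.2 ± 0.423 CPM per kb in GSK591 cells and 14.0 ± 0.267 CPM per kb in vehicle cells at 24 h. At 96 h CDKN2C came before CDKN1A in both treatments: CDKN2C had 15.8 ± 0.795 CPM per kb in GSK591 cells and 19.8 ± 1.45 in vehicle cells, and CDKN1A had 11.5 ± 1.10 in GSK591 cells and 17.5 ± 0.244 in vehicle cells. CDKN1A and CDKN1B (10.9 ± 1.23 CPM per kb) did not differ beyond their spread in GSK591 cells at 96 h, and neither did CDKN1B (10.4 ± 0.0890) and CDKN2A (11.04 ± 0.515) in vehicle cells at 96 h. CDKN2A stood above CDKN1B at 24 h, with 9.30 ± 0.228 against 5.45 ± 0.328 CPM per kb in GSK591 cells and 9.43 ± 0.497 against 5.13 ± 0.258 CPM per kb in vehicle cells. CDKN2D kept between 2.45 and 3.84 CPM per kb and CDKN2B between 0.352 and 0.495 CPM per kb as group means. All values are mean ± SD of 3 libraries.

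The genes that the CDK inhibitors act on were lower at 96 h in larger number than higher. Among the CDK and cyclin genes, 6 of 11 tested fell and 2 rose with GSK591 at 96 h, where 19.6% of all genes fell and 20.7% rose, and the median of the 11 was -0.27, against 0.00 over all genes. CCNE2 and CCNE1, the E-type cyclins that activate CDK2 and that p21 and p27 oppose, fell by 1.08 ± 0.14 (adjusted p = 0.00138, edgeR) and 0.78 ± 0.13 (adjusted p = 0.0026, edgeR) on the log2 scale. CCNE2 averaged 16.8 ± 3.23 CPM in GSK591 cells and 36.2 ± 5.05 CPM in vehicle cells at 96 h. CDK4, a direct target of the INK4 proteins, fell by 0.51 ± 0.08 (adjusted p = 0.00281, edgeR), and CCNA2, the S-phase cyclin, by 0.69 ± 0.13 (adjusted p = 0.00454, edgeR). CCND1 and CCND2, cyclin D genes named after their values were seen, were the 2 that rose. CCND1 rose by 0.61 ± 0.17 (adjusted p = 0.021, edgeR) and CCND2 by 0.68 ± 0.19 (adjusted p = 0.0193, edgeR). Both were low: at 96 h CCND1 averaged 1.42 CPM in GSK591 cells and 0.904 CPM in vehicle cells, and CCND2 1.86 and 1.13 CPM. CCND3 at -0.08 did not pass the threshold (adjusted p = 0.342, edgeR). At 24 h, 3 of the 11 were lower and 0 higher, where 7.29% of all genes were lower and 7.44% higher. The difference between times was called more negative for 6 and more positive for 1, where 13.2% of all genes were more negative and 11% more positive.

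Downstream of the CDKs stand the RB family, which the kinases inactivate, and the E2F factors that RB proteins hold. Of 13 tested, 5 fell and 2 rose at 96 h, against 19.6% and 20.7% of all genes, with a median of -0.11. E2F7 fell by 1.37 ± 0.28 (adjusted p = 0.00617, edgeR), E2F2 by 0.89 ± 0.17 (adjusted p = 0.00459, edgeR), E2F8 by 0.77 ± 0.15 (adjusted p = 0.00508, edgeR) and RBL1, an RB relative also known as p107, by 0.35 ± 0.06 (adjusted p = 0.00316, edgeR). E2F7 and E2F8 are atypical E2Fs that repress other E2F targets. The 2 that rose, named after their values were seen, were RB1 and E2F5. RB1 rose by 0.32 ± 0.10 (adjusted p = 0.0289, edgeR) and E2F5 by 0.15 ± 0.05 (adjusted p = 0.031, edgeR). RBL2, the third RB family gene, was at 0.11 ± 0.05 and did not pass the threshold (adjusted p = 0.0907, edgeR). At 24 h, 3 of the 13 were lower (7.29% of all genes) and 0 higher (7.44% of all genes), and the difference between times was called more negative for 5 (13.2% of all genes).

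Of the factors known to act on transcription of CDK inhibitor genes, 18 of 19 listed symbols were in the files and tested, KMT2A not being matched, and 3 rose and 4 fell at 96 h, with a median of -0.07. That is near the share of all genes, of which 20.7% rose and 19.6% fell. MYC, which represses CDKN1A and CDKN2B together with ZBTB17, averaged 251 ± 25.9 CPM in GSK591 cells and 341 ± 28.7 CPM in vehicle cells at 96 h (log2 fold change -0.43 ± 0.09, adjusted p = 0.00652, edgeR). CBX7, a Polycomb protein known to silence the CDKN2A locus, rose by 0.35 ± 0.08 (adjusted p = 0.00821, edgeR), while EED, a core subunit of Polycomb complex PRC2, fell by 0.23 ± 0.06 (adjusted p = 0.0159, edgeR). BCL6 averaged 523 ± 20.5 CPM in GSK591 cells and 462 ± 4.43 CPM in vehicle cells at 96 h (log2 fold change 0.19 ± 0.05, adjusted p = 0.0174, edgeR). The BCL6 call was lost with no filter on low counts (adjusted p = 0.0606, edgeR), without vehicle replicates 1 or 3 (0.0682 and 0.0783) and without GSK591 replicates 1 or 3 (0.0742 and 0.0593).

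Among genes that control the removal of CDK inhibitor proteins, 3 of 15 tested rose and 3 fell at 96 h, with a median of -0.02, near the 20.7% and 19.6% of all genes. DTL, which directs p21 to the CUL4 ubiquitin ligase in S phase, fell by 0.92 ± 0.12 (adjusted p = 0.00139, edgeR). SKP2 and its cofactor CKS1B, which mark p27 for removal, fell by 0.55 ± 0.13 (adjusted p = 0.0125, edgeR) and 0.37 ± 0.08 (adjusted p = 0.00663, edgeR). USP28, a deubiquitinase, rose by 0.24 ± 0.06 (adjusted p = 0.01, edgeR). The adjusted p of SKP2 was 0.0585 without vehicle replicate 2 and 0.0513 without GSK591 replicate 3, and the USP28 call was lost without vehicle replicates 1 or 3 (adjusted p = 0.0512 and 0.0557), all by edgeR. These are transcript levels, and the amounts of CDK inhibitor protein were not measured. At 24 h, 1 of the 15 was lower (7.29% of all genes) and 0 higher (7.44% of all genes).

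The other 4 symbols that begin with CDKN do not encode CDK inhibitors of these families. CDKN3, a phosphatase that acts on CDK2, averaged 21.9 ± 2.71 CPM in GSK591 cells and 35.2 ± 5.31 CPM in vehicle cells at 96 h (log2 fold change -0.67 ± 0.12, adjusted p = 0.00392, edgeR). CDKN2AIPNL fell by 0.32 ± 0.06 (adjusted p = 0.00568, edgeR). CDKN2AIP at -0.14 ± 0.07 (adjusted p = 0.13, edgeR) and CDKN2B-AS1 at -0.37 ± 0.15 (adjusted p = 0.0722, edgeR) did not pass the threshold. CDKN2B-AS1 passed it without GSK591 replicate 2 (adjusted p = 0.0076, edgeR), without both libraries numbered 2 (0.00207) and in the fit of all 12 libraries (0.017), and CDKN2AIP in that fit alone among the settings run (0.0473). Of these 4 genes, 2 were lower at 96 h (19.6% of all genes), and at 24 h 2 were lower (7.29% of all genes) and 0 higher (7.44% of all genes).

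CDKN1A fell at 96 h while other genes of the DNA damage and stress response, listed as known p53 targets, moved in both directions. Of 20 tested (of 22 listed), 5 rose and 4 fell with GSK591 at 96 h, near the 20.7% and 19.6% of all genes, with a median of -0.02. TP53INP1, a stress protein, rose by 1.27 ± 0.26 (adjusted p = 0.00635, edgeR), RRM2B, a subunit of ribonucleotide reductase, by 0.41 ± 0.07 (adjusted p = 0.00373, edgeR), and MDM2, a ubiquitin ligase, by 0.26 ± 0.05 (adjusted p = 0.00632, edgeR). BTG2, an antiproliferative gene, fell by 0.27 ± 0.05 (adjusted p = 0.00525, edgeR). At 24 h, 4 of the 20 were higher and 4 lower, against 7.44% and 7.29% of all genes.

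The change of this list with time in vehicle was larger and mostly downward. In vehicle cells 12 of the 20 were lower and 3 higher at 96 h than at 24 h, where 23.5% of all genes were lower and 24.2% higher, and the median of the 20 was -0.28, against 0.01 over all genes. The genes named here were chosen after their values were seen. BBC3 (PUMA), GADD45A, FAS, SESN1, AEN and PLK3 all fell by more than 1 on the log2 scale: the log2 fold change was -1.97 ± 0.12 for BBC3, -1.80 ± 0.11 for GADD45A, -1.40 ± 0.15 for FAS, -1.40 ± 0.15 for SESN1, -1.22 ± 0.07 for AEN and -1.15 ± 0.11 for PLK3. These encode death, growth-arrest and stress proteins. They were picked for large falls, so nothing follows from CDKN1A at -1.78 lying within their range. The other genes called lower fell less: RPS27L by 0.57, PMAIP1 by 0.42, MDM2 by 0.36, TNFRSF10B by 0.32, BAX by 0.25 and ZMAT3 by 0.21. The 3 that rose were DDB2 at 0.34 ± 0.05, SESN2 at 0.26 ± 0.05 and CCNG1 at 0.15 ± 0.04, which act in DNA repair, nutrient stress and growth control. TP53INP1 at 0.17, BTG2 at 0.11, and XPC, PPM1D and RRM2B at -0.02, -0.03 and -0.02 did not pass the threshold.

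Other genes known to be repressed or bound by BCL6, besides CDKN1A and CDKN1B, also moved in both directions. At 96 h 5 of 17 tested rose and 4 fell with GSK591, against 20.7% and 19.6% of all genes, with a median of 0.05. At 24 h 4 rose and 0 fell, against 7.44% and 7.29% of all genes. IRF4, a factor of plasma cell entry, fell by 0.47 ± 0.06 (adjusted p = 0.0014, edgeR) and CCL3, a chemokine, by 0.81 ± 0.14 (adjusted p = 0.00335, edgeR). ATR, the kinase that senses stalled replication, rose by 0.34 ± 0.07 (adjusted p = 0.00578, edgeR).

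The genes whose pattern over the 12 libraries was most like that of each CDK inhibitor were found by the root mean square difference of log2 CPM, each gene centred on its own mean, among 8931 well-expressed genes (8932 for CDKN2B and CDKN2D). For CDKN1A they were GADD45A at 0.128, BBC3 at 0.369 and RGS16 at 0.374, while CDKN1A itself varied with an SD of 1.08 over the libraries. GADD45A averaged 4.12 CPM in GSK591 cells and 6.23 CPM in vehicle cells at 96 h, and 17.6 CPM in GSK591 cells and 21.4 CPM in vehicle cells at 24 h. Its log2 fold change with GSK591 was -0.57 ± 0.13 at 96 h (adjusted p = 0.0108, edgeR) and -0.27 ± 0.07 at 24 h (adjusted p = 0.0114, edgeR). BBC3 was near CDKN1A in its fall with time only: it averaged 7.75 CPM in GSK591 cells and 6.45 CPM in vehicle cells at 96 h, a log2 fold change of 0.28 ± 0.14 that did not pass the threshold (adjusted p = 0.142, edgeR). All of these values share the same libraries and carry no test of likeness.

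For CDKN1B the nearest were GPR15 at 0.0958, THAP2 at 0.0961 and QPRT at 0.123, with an SD of 0.534 for CDKN1B itself. GPR15 averaged 64.8 CPM in GSK591 cells and 71.9 CPM in vehicle cells at 96 h, and 33.1 CPM in GSK591 cells and 33.8 CPM in vehicle cells at 24 h. For CDKN2A they were MZT2B, NDUFA7 and C9orf40 at 0.0617 to 0.0652, for CDKN2C ZNF643, RFWD2 and PTTG1 at 0.0642 to 0.0665, and for CDKN2D BBS10, C2orf68 and KCTD7 at 0.0616 to 0.0745. CDKN2B had no gene as near, with TRIM23, LPHN1 and INPP5F at 0.143 to 0.145, and INPP5F was not among its nearest 3 when libraries were scaled by their totals alone. Genes that vary little lie near each other by this measure, which limits what the small distances of the INK4 genes show.

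**Figure D4:**
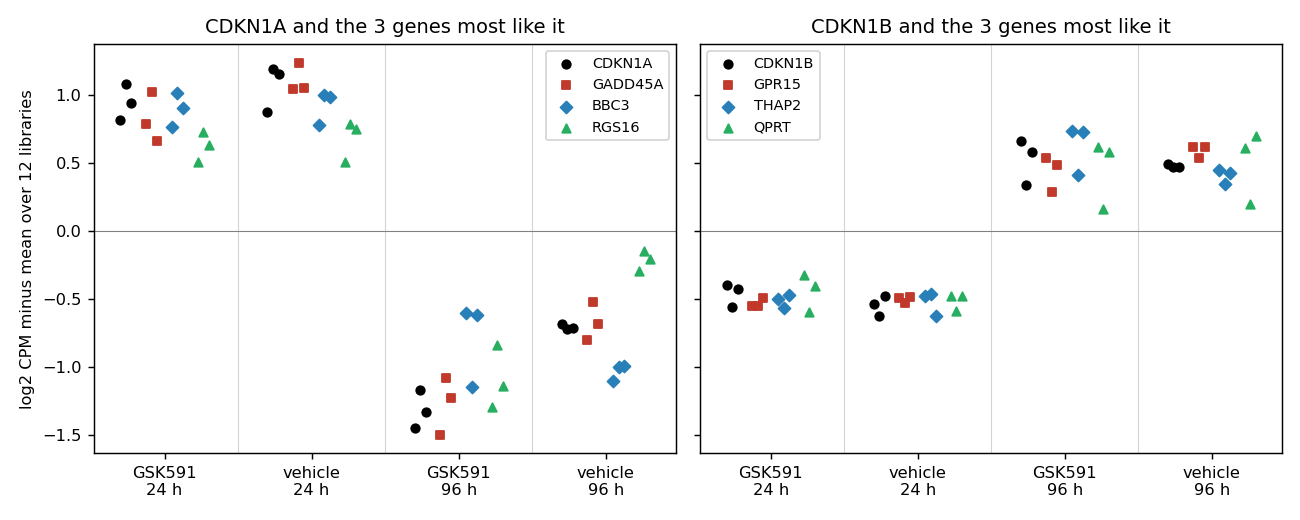
Log2 CPM centred on each gene's mean over the 12 libraries for CDKN1A (left) and CDKN1B (right) with the 3 genes most like each; each point is 1 library. GADD45A lies near CDKN1A in all 4 groups, RGS16 lies below it at 24 h, and GPR15, THAP2 and QPRT stand higher at 96 h as CDKN1B does.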

How the data were processed

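The authors deposited 1 table of raw counts per gene symbol for each time. The submitters' processing notes list STAR, HTSeq and edgeR and the builds hg19 and GRCh37; versions, annotation and strand setting are not given there. For each time the authors deposited log2 fold changes with p-values and FDR, per the file headers, by a test not given there. Counts were analysed with edgeR 4.0.16 (R 4.3.3): filterByExpr, TMM, the quasi-likelihood test, two-sided, Benjamini-Hochberg over all genes tested, threshold 0.05 ("called"). Each time was fitted on its 6 libraries. The difference between times and vehicle 96 h over 24 h came from 1 fit of 12 libraries with 4 group means. The SE is the log2 fold change over the square root of F. CPM use TMM factors of all 12 libraries. Depth was 48.5 to 64.4 M counts, and 547.9 M in 1 library.

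Alternatives were other scalings, DESeq2 1.42.0, no filter, a filter of 1 CPM in 3 libraries, a replicate block, 1 fit of all 12 libraries, the deep library thinned to 51.8 M, both libraries numbered 2 at 96 h left out, and each library left out. No replicate pair agreed within sampling noise by chi-square, so all 12 were kept. The CDK inhibitor genes and the gene lists were chosen with earlier results of these data known. The rule for names was all 7 genes, up to 4 genes with the smallest p at 96 h per list, and the 3 genes most alike in pattern; others are marked, and some genes the rule selects are not reported here. No list was tested as a whole. The fits were tested on simulated data.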

Additional observations from a re-analysis of the deposited data

Results flagged for a closer look

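The effect of GSK591 differed between 96 h and 24 h for 3 CDK inhibitor genes by a test of the difference itself, in edgeR's fit of all 12 libraries. The log2 effect at 96 h minus that at 24 h was -0.473 for CDKN1A, -0.348 for CDKN2A and -0.244 for CDKN2C. Their own effects were -0.59, -0.36 and -0.31 at 96 h and -0.13, -0.02 and -0.08 at 24 h. The CDKN1A difference kept its call without any 1 library, while those of CDKN2A and CDKN2C lost it without 10 and 7 of the 12 libraries left out one at a time. Groups of 3 libraries are too small for the check of single outlying values, so none was made.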

How the results depend on the processing

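At 24 h the 1940 genes called became 29 in the fit of all 12 libraries, where the spread is shared with the wider 96 h groups, and 980 to 2208 with 1 library left out (1068 without vehicle replicate 2, 980 and 1041 without GSK591 replicates 1 and 3). The 1 CDK inhibitor gene called there became 0 with DESeq2 and in the fit of all 12 libraries, 2 with no filter and 0 to 2 with 1 library left out. At 96 h the 5437 genes called became 8201 of 13566 tested with both libraries numbered 2 left out. They became 3438 to 7485 with 1 library left out (3507 without vehicle replicate 2, 3438 without GSK591 replicate 1). The 3 CDK inhibitor genes became 6 with both libraries numbered 2 left out and 2 to 5 with 1 left out, 5 being the value without GSK591 replicate 2. For the difference between times, 3298 genes became 6022 with both libraries numbered 2 left out and 1991 to 5712 with 1 left out (2034 without vehicle replicate 3 and 1991 without GSK591 replicate 2 at 24 h, 5712 without GSK591 replicate 2 at 96 h), and the 3 CDK inhibitor genes became 1 to 3 with 1 left out. For vehicle over time, the counts moved by less than 1.5 times. The same replicate number showed no clear pairing of libraries at 24 h and a partial one at 96 h. Deviations from the group means correlated at 0.0225, 0.127 and 0.0338 for numbers 1, 2 and 3 at 24 h. At 96 h they correlated at 0.291, 0.249 and 0.0124. Best correlation with the own number was found for 3 of 6 libraries at 24 h and 5 of 6 at 96 h. Whether the numbers mark a pairing was not settled, and the main fits have no block. With the replicate block 2811 genes were called at 24 h, 6293 at 96 h, 4319 for the difference and 7054 for vehicle over time, and the CDK inhibitor genes called were 2, 3, 3 and 5, CDKN1A joining CDKN2D at 24 h (adjusted p = 0.000531).

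Small values changed sign, none of them called with its sign turned. The CDKN1B difference between times was 0.00495 with library totals alone, 0.0456 with both libraries numbered 2 left out, and -0.0965 to 0.0610 with 1 left out. That of CDKN2D was -0.00039 with no filter, -0.0283 with the deep library thinned, and -0.0120 to 0.0589 with 1 left out. That of CDKN2B was -0.0361 to 0.347 with 1 left out. With 1 left out, the 24 h values ran from -0.0631 to 0.00765 for CDKN2A and from -0.112 to 0.266 for CDKN2B, and the 96 h value of CDKN1B from -0.00217 to 0.147. The cause was not tested. The ratio of CDKN1A to CDKN1B moved by less than 1 SD with any 1 library left out. CDKN1C had at most 1 count per library, also in the deep library, and CDKN2B had 52 counts in its lowest library.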
